A study of Mus musculus with 12 samples.

Results

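The molecules described here are the 62 known piRNAs that were found repeatedly in the small RNA libraries of mouse medial prefrontal cortex (mPFC). A known piRNA is one with an ID that starts with mmu_piR. The study's methods name the catalogue piRBase, but the piRNA IDs in its text start with piR-mmu. The catalogue behind the mmu_piR IDs is therefore not known here. A known piRNA was taken as recurrent when it had at least 5 counts in at least 3 of the 12 libraries, so the members were chosen by their own counts. Of the 693 piRNAs in the files, 269 were known and 424 were predicted from the data, and 62 of the 269 (23.0%) met the rule.

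PIWI-interacting RNAs (piRNAs) are short RNAs, somewhat longer than miRNAs, that are loaded onto PIWI proteins, a branch of the Argonaute family. They are best known from the animal germline, where they guide the silencing of transposons by cleavage of transcripts and by methylation of DNA. In brain they are far rarer than miRNAs, and reads that match a catalogued piRNA can also come from fragments of other RNAs of the same sequence. The role of the single piRNAs named here is not given by the files, and their sequences and positions were not used here.

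The libraries came from adult male C57BL/6 mice that went through cocaine conditioned place preference (CPP), a test of how strongly an animal prefers the place paired with a drug. Group SS received saline and saline, CS cocaine (20 mg/kg, intraperitoneal) and saline, MS L-methionine (MET, a methyl donor) and saline, and MC MET and cocaine. By the sample labels and the study's methods MET was given subcutaneously at 1 g/kg, 2 times a day over 10 days. A figure legend in the study names a lower dose. Each group had 3 libraries, the mPFC was dissected 2 h following CPP testing, and each library was made from the pooled RNA of 2 animals, so the spread between libraries is a spread between pools. The libraries keep the replicate numbers of the labels (SS replicates 12, 13 and 14, CS replicates 8, 9 and 10, MS replicates 3, 4 and 23, MC replicates 16, 17 and 20), and values below are given in that order within each group.

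Library totals, in units of 1000000 counts, ran from 7.77 to 11.1, and levels are given as counts per 1000000 of that total (CPM). A count of 0 allows a level of up to 3 counts, which was 0.271 to 0.386 CPM in these libraries, for counting error only. All 5 neural marker miRNAs (miR-124, miR-9, miR-128, miR-138 and miR-129) were present in every library, with a summed level of 106477 to 271138 CPM. Of 10 miRNAs of the X-linked cluster of male germ cells, 5 had no count in any library and the summed level stayed at or below 0.899 CPM. Clustering of the profiles of 125 families of miRNA precursors, with the number of sets fixed at 3, gave sets that cut across the groups. The number of sets was thus a choice and not a result. Set A was made of CS replicates 8 and 9 with SS replicate 12. In set B were the 3 MS libraries, SS replicates 13 and 14 and MC replicate 20. The remaining libraries, MC replicates 16 and 17 with CS replicate 10, formed set C. The labels name no batch, the sets come from the data, and set B was also the deepest, with totals of 10.0 to 11.1 in the same unit against 7.77 to 8.71 in the other libraries. MC replicate 16 further stood apart with 1.91% of its counts on rRNA, tRNA, snRNA, snoRNA and other small non-coding RNA, against 0.490% to 1.10% elsewhere.

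The recurrent piRNAs carried nearly all reads of known piRNAs. They held 341719 of 342606 counts (99.7%), and the 207 known piRNAs that missed the rule held 887 counts among them. Of those 207, 190 had under 5 counts in every library, 11 reached 5 counts in 1 library and 6 in 2 libraries. The highest count of any was 18, for mmu_piR_000442, and 108 were seen in 1 library only. Just inside the rule stood mmu_piR_000616, mmu_piR_002435 and mmu_piR_002643, each with 5 counts in its third-ranked library and with 29, 49 and 41 counts in all. Just outside stood mmu_piR_000578, mmu_piR_000949 and mmu_piR_002163, each with 4 counts in its third-ranked library and with 37, 30 and 28 counts in all. The sides of the rule therefore overlapped in their total counts.

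Presence was broad but not complete. Of the 62 members, 41 had a count in all 12 libraries, 28 had 5 or more counts in all 12, and 21 were missing from at least 1 library. Only 5 met the rule with exactly 3 libraries. Single libraries held between 52 members (SS replicate 13 and MS replicate 23) and all 62 (MC replicate 20). SS replicate 12 and CS replicates 8 and 9, all shallow, each held 61, while MC replicate 17, also shallow, held 55.

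Abundance was concentrated on very few members. Over all libraries mmu_piR_000273 took 48.5% of the members' counts, the first 3 members (mmu_piR_000273, mmu_piR_000935 and mmu_piR_025576) took 77.4%, and the first 10 took 92.4%, which left the rest to the other 52. A mean of at least 100 CPM was reached by 4 members, at least 10 CPM by 19 and at least 1 CPM by 42. The median of the 62 means was 2.79 CPM and the lowest mean was 0.264 CPM. The counts are per read and not per length, so these ranks order reads. If catalogued IDs overlap in sequence, reads could have been split between them, with 1 mismatch allowed in the alignment. No pair of members had the same count in every library, which cannot tell whether reads were split.

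The members together stood at 2442, 2000 and 2202 CPM in the SS libraries. In CS they stood at 4577, 1468 and 2584 CPM, in MS at 2395, 3536 and 2374 CPM, and in MC at 5415, 2798 and 4921 CPM. All 3 MC libraries were above all 3 SS libraries, while CS spanned both and held the lowest library of the series. The SS mean was 2215 ± 222 CPM, the CS mean 2876 ± 1575, the MS mean 2769 ± 665 and the MC mean 4378 ± 1391 (SD, n = 3 each). This sum is a description without a test, since the members were chosen by the same counts. The 5 libraries with the lowest summed level of neural marker miRNAs were the 5 with the highest level of recurrent piRNAs. Those 5 were MC replicates 16, 17 and 20, CS replicate 8 and MS replicate 4, with neural sums of 106477 to 145682 CPM against 178548 to 271138 CPM in the other 7. Both levels are shares of the same total, all 3 MC libraries lie in that group of 5, and what this relation contributes to the levels was not tested. In bulk tissue, fewer cells of a type and less RNA per cell cannot be told apart.

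**Figure D1:**
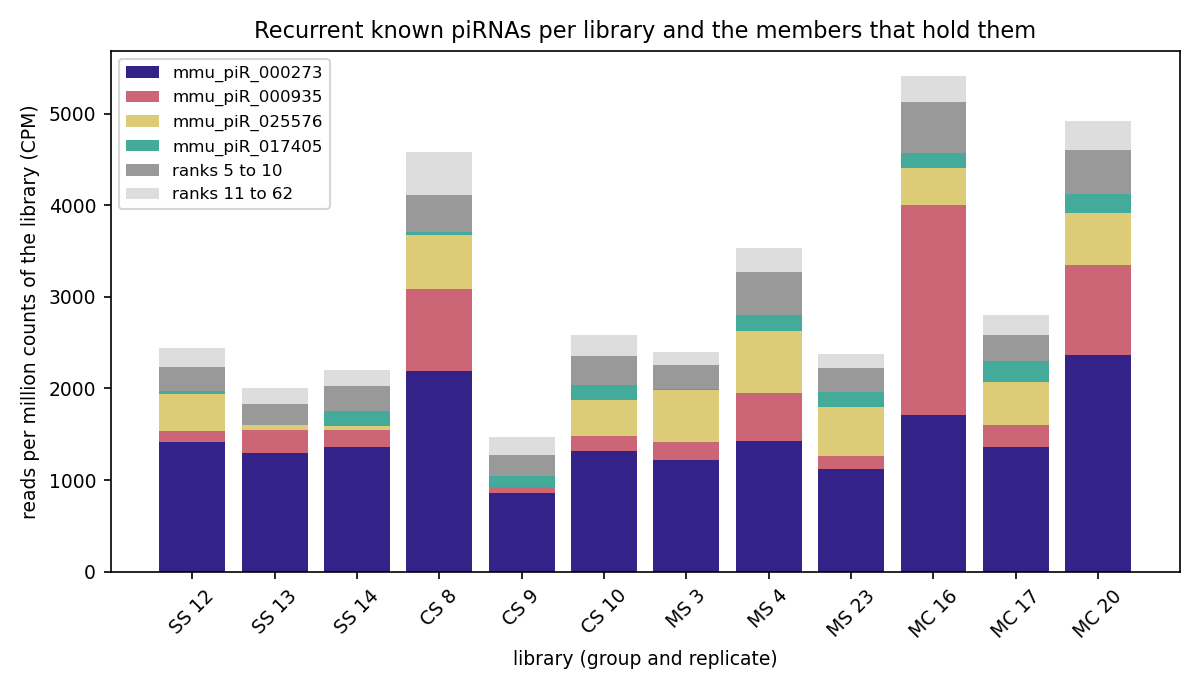
Summed level of the 62 recurrent known piRNAs in each library in CPM, stacked by the 4 most abundant members, ranks 5 to 10 and ranks 11 to 62. mmu_piR_000273 is the largest part of every bar except that of MC replicate 16, where mmu_piR_000935 exceeds it.

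The share of mmu_piR_000273 differed between libraries. It was 57.9%, 64.7% and 61.7% of the members' counts in SS, 47.9%, 58.1% and 51.0% in CS, 50.7%, 40.2% and 47.4% in MS, and 31.6%, 48.7% and 48.0% in MC. SS did not overlap with MS or MC in this share, and it overlapped with CS by CS replicate 9. The piRNA ranked first in 11 of 12 libraries, and in MC replicate 16 it gave way to mmu_piR_000935, which took 42.2% there. Expressed as the effective number of members (the inverse of the summed squared shares), dominance corresponded to 2.28 to 2.72 equally abundant piRNAs in SS, 2.83 to 3.48 in CS, 3.08 to 4.4 in MS and 3.47 to 3.55 in MC. The 3 SS libraries thus had the lowest effective numbers, although the share of mmu_piR_000273 in CS replicate 9 was above that in SS replicate 12. The first 3 members of each library took 71.7% to 83.0% of the members' counts and the first 10 took 89.1% to 95.2%, with between 6 and 11 members needed to reach 90%. Without mmu_piR_000273 the other members summed to a mean of 859 ± 162 CPM for SS, 1421 ± 895 for CS, 1514 ± 521 for MS and 2566 ± 1135 for MC (SD, n = 3 each).

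The dominant mmu_piR_000273 was itself one of the steadier members. It stood at 1414, 1293 and 1360 CPM in SS, 2193, 854 and 1318 in CS, 1215, 1422 and 1126 in MS, and 1711, 1363 and 2361 in MC. The highest library (MC replicate 20) exceeded the lowest (CS replicate 9) by 2.77-fold, and the mean was 1469 ± 429 CPM (SD, n = 12). The CS libraries alone covered nearly that whole range.

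The second member, mmu_piR_000935, varied far more. It stood at 126, 256 and 182 CPM in SS, 887, 72.8 and 167 in CS, 197, 525 and 141 in MS, and 2287, 241 and 990 in MC. MC replicate 16 alone held 32.6% of its counts, and its highest library exceeded its lowest by 31.4-fold. Its 4 highest libraries (MC replicates 16 and 20, CS replicate 8 and MS replicate 4) were the same 4 in which the members' sum was highest.

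The third member, mmu_piR_025576, split into high and low libraries. It stood at 399, 52.0 and 53.3 CPM in SS, 596, 1.72 and 384 in CS, 575, 683 and 527 in MS, and 405, 466 and 559 in MC. CS replicate 9 held 15 counts of it where the other CS libraries held 5051 and 3141, so that its rank among the 62 ran from 2 to 38. All MS and MC libraries were above all SS libraries, while the CS libraries lay on both sides of SS. Its SD of log2(CPM + 0.5) over the 12 libraries, 2.45, was the largest of all members, although it was 1 of the 3 most abundant.

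The fourth member, mmu_piR_017405, also had isolated low libraries, but other ones. It stood at 37.1, 4.58 and 156 CPM in SS, 33.5, 120 and 167 in CS, 4.10, 171 and 165 in MS, and 163, 230 and 213 in MC. SS replicate 13 (46 counts) and MS replicate 3 (45 counts) were the low ones. The 3 MC libraries overlapped with the upper libraries of every other group except SS, whose highest library (156 CPM) lay just below them.

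Among the next members, the levels of mmu_piR_032901 and mmu_piR_010309 were close in all groups. mmu_piR_032901 stood at 93.2, 82.3 and 73.7 CPM in SS, 90.2, 47.4 and 66.5 in CS, 67.2, 104 and 60.0 in MS, and 31.5, 98.7 and 117 in MC. mmu_piR_010309 stood at 69.5, 54.2 and 98.4 CPM in SS, 89.1, 79.0 and 57.1 in CS, 74.1, 94.2 and 58.7 in MS, and 44.7, 60.7 and 82.4 in MC. MC replicate 16 was the lowest library for both, and the groups overlapped throughout. mmu_piR_020120 stood at 40.7, 33.9 and 37.9 CPM in SS, 43.1, 44 and 29.0 in CS, 38.8, 40.4 and 30.5 in MS, and 5.66, 33.7 and 44.1 in MC. Apart from MC replicate 16, where its rank dropped to 26, its libraries lay between 29.0 and 44.1 CPM.

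MC replicate 16 moved other leading members the opposite way. mmu_piR_000691 stood at 32.1, 28.3 and 22.4 CPM in SS, 41.3, 23.4 and 53.2 in CS, 27.2, 28.6 and 72 in MS, and 298, 32.0 and 50.2 in MC. mmu_piR_033077 stood at 16.4, 19.4 and 24.6 CPM in SS, 29.4, 22.3 and 26.2 in CS, 26.5, 49.3 and 29.1 in MS, and 123, 28.6 and 22.2 in MC. In both, the value of MC replicate 16 was above every other library, and the other MC libraries lay within the range of the SS, CS and MS libraries. That library held the highest level of 16 members and the lowest of 7.

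The remaining leading members were uneven within each group. mmu_piR_034793 stood at 7.17, 7.37 and 16.5 CPM in SS, 104, 7.0 and 90.1 in CS, 26.7, 151 and 17.1 in MS, and 54.2, 33.5 and 164 in MC. mmu_piR_022097 stood at 13.4, 1.29 and 1.44 CPM in SS, 146, 8.04 and 2.44 in CS, 18.6, 48.5 and 1.35 in MS, and 5.54, 0.502 and 64.2 in MC. mmu_piR_005109 stood at 27.2, 16.1 and 9.57 CPM in SS, 36.8, 4.94 and 25.2 in CS, 19.6, 14.8 and 12.4 in MS, and 17.4, 31.4 and 34.3 in MC. For mmu_piR_034793 all MS and MC libraries were above all SS libraries, while for mmu_piR_022097 and mmu_piR_005109 every group overlapped with every other.

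**Figure D2:**
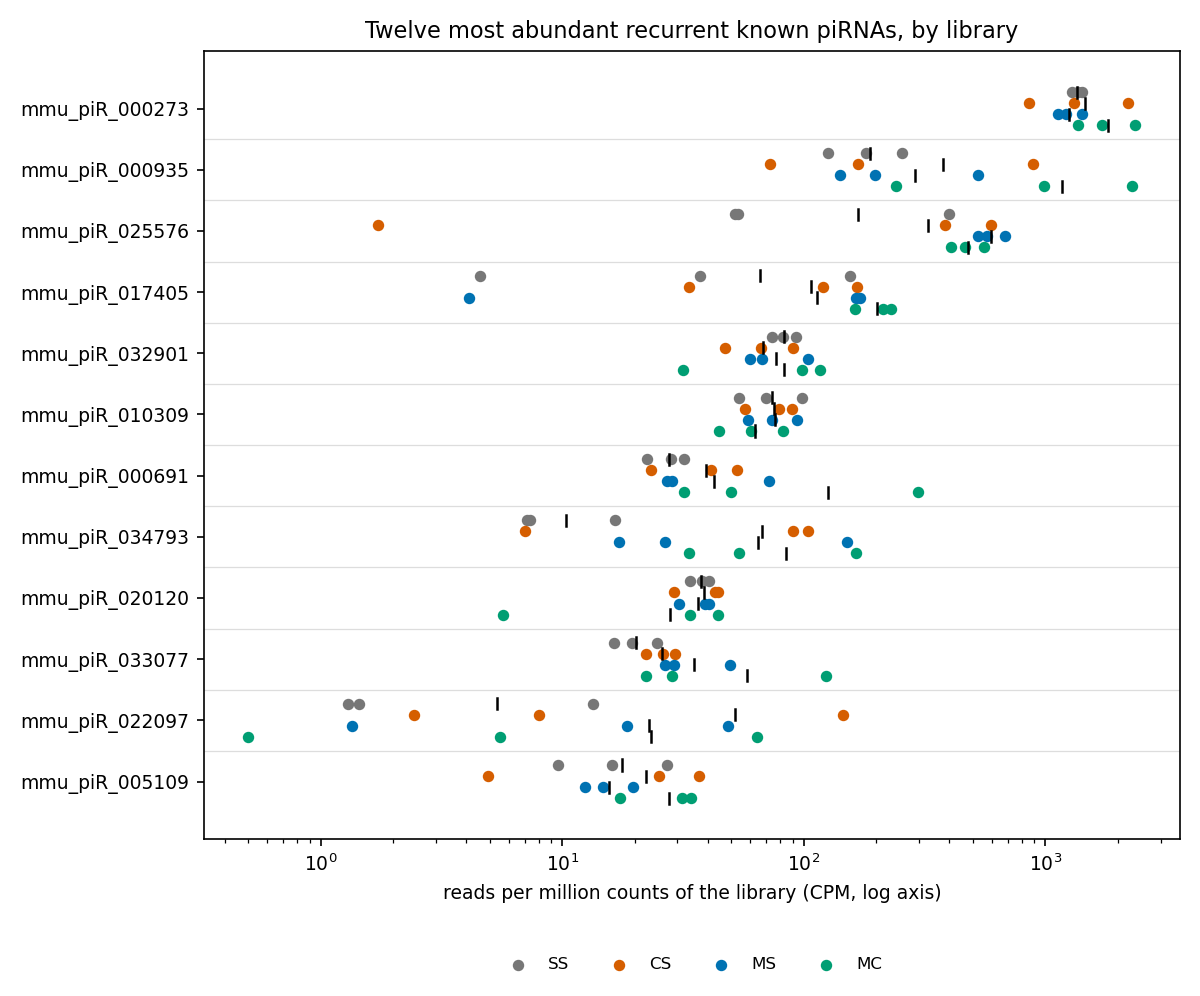
Level of the 12 most abundant recurrent known piRNAs in each library, in CPM on a log axis, with points coloured by group and a black bar at each group's mean (n = 3 libraries). mmu_piR_000273, mmu_piR_032901, mmu_piR_010309 and mmu_piR_020120 form tight clusters apart from single libraries. mmu_piR_025576 and mmu_piR_022097 spread over more than 100-fold, the former through CS replicate 9 alone (1.72 CPM, against 52.0 to 683 CPM elsewhere).

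The levels of a member varied widely between libraries. The median CV of the 62 members over the 12 libraries was 76.5%, a spread that holds the differences between animal pools, where counting alone would give a median of 19.5%. The median SD of log2(CPM + 0.5) was 0.81 for the members, 0.93 for the 219 predicted piRNAs tested beside them and 0.51 for 746 mature miRNAs. Among features with a mean of 10 to 100 CPM the same SD was 0.81 for 15 members, 0.67 for 17 predicted piRNAs and 0.58 for 170 miRNAs. At 1 to 10 CPM it was 0.92 for 23 members, 0.83 for 114 predicted piRNAs and 0.52 for 242 miRNAs. Above 100 CPM the 4 members had a median SD of 1.74, 2 predicted piRNAs 0.35 and 175 miRNAs 0.51. Below 1 CPM the members were instead lower than the predicted piRNAs. The SD there was 0.65 for 20 members, 0.99 for 86 predicted piRNAs and 0.44 for 159 miRNAs. The members' median CV was 92.0% below 1 CPM, 70.5% at 1 to 10, 66.1% at 10 to 100 and 62.8% above 100 CPM, so the CV fell with abundance while the SD of log2 values did not follow it. The 0.5 CPM added to each level shrinks the SD of low levels, most of all below 1 CPM. With other pseudocounts, or with members of at least 1 CPM only, the members' median SD ran from 0.61 to 1.11. These values are descriptions without a test.

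Individual members ranged from steady to extremely uneven. The lowest SD among members with a mean of at least 1 CPM belonged to mmu_piR_028252 (0.24), mmu_piR_034411 (0.27) and mmu_piR_010309 (0.35). mmu_piR_028252 stood between 5.95 and 10.8 CPM in all 12 libraries, and mmu_piR_034411 between 8.24 and 17.0 CPM. The highest SD belonged to mmu_piR_025576 (2.45), mmu_piR_022097 (2.34) and mmu_piR_028975 (2.23). mmu_piR_028975 stood at 10.7, 2.79 and 30.8 CPM in SS, 0.472, 18.0 and 21.8 in CS, 0, 23.9 and 0.289 in MS, and 3.73, 0.627 and 20.7 in MC. Every group held at least 1 library at 20.7 CPM or more and at least 1 at 2.79 CPM or less. No single library held over 50% of the counts of any member, and mmu_piR_038428 came closest, with 46.1% in MC replicate 16.

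**Figure D3:**
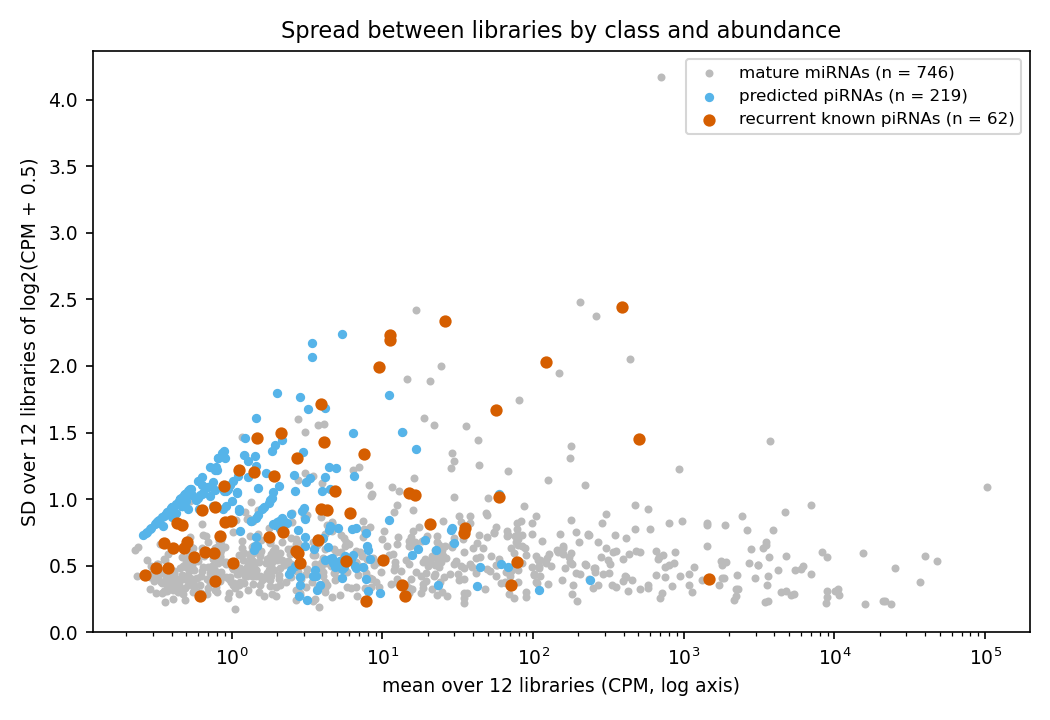
Mean level over the 12 libraries (CPM, log axis) against the SD of log2(CPM + 0.5) for the 62 recurrent known piRNAs, 219 predicted piRNAs and 746 mature miRNAs. The 4 members above 100 CPM have a median SD of 1.74, whereas mature miRNAs of that abundance have a median of 0.51.

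The order of the members was similar between libraries and no closer within a group than between groups. Over the 62 members, Spearman's rho had a median of 0.76 across the 66 pairs of libraries and ran from 0.62 to 0.94. The median was 0.75 for the 12 pairs from the same group and 0.76 for the 54 pairs from different groups. It was 0.82 for the 21 pairs from the same library set and 0.74 for the 45 pairs from different sets. The highest value joined MS replicate 4 and MC replicate 20, which are of different groups and of the same set. For the 746 mature miRNAs the median was 0.96, and for the 219 predicted piRNAs 0.68. The pairs share libraries, so these values describe the data and carry no test.

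Several members were high in the same libraries, whatever the group. In 7 members the 3 highest libraries were CS replicate 8, MS replicate 4 and MC replicate 20, which is 11.3% of the members, and the same 3 led in 3.56% of the 281 piRNAs tested. These 7 were mmu_piR_034793, mmu_piR_022097, mmu_piR_032974, mmu_piR_012107, mmu_piR_025007, mmu_piR_004086 and mmu_piR_000620, named after their values were seen. mmu_piR_032974, for instance, stood at 54.6, 28.0 and 24.3 CPM in those 3 libraries, at 11.7 in MC replicate 16 and between 0.274 and 7.21 in the other 8. In a further 6 members, among them mmu_piR_000273 and mmu_piR_000935, the 3 highest were CS replicate 8, MC replicate 16 and MC replicate 20 (9.68% of the members and 2.85% of the piRNAs tested). The 3 libraries of set A (SS replicate 12, CS replicates 8 and 9) led in 4 members (6.45%), against 12.5% of all piRNAs tested.

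Most of the spread lay within groups. For the median member, 28.4% of the variance of log2(CPM + 0.5) lay between the 4 groups, where 27.3% would be expected from the degrees of freedom alone, and over all 281 tested piRNAs the median was 30.2%. Between the 3 library sets it was 16.7% against 18.2% from the degrees of freedom, and 24.7% over all tested piRNAs. At least 75% of the variance lay between the groups in 0 members (6 of the 281 tested piRNAs) and between the sets in 8 members (12.9%, against 16.4% of all tested piRNAs). The 8 were mmu_piR_000585, mmu_piR_000958, mmu_piR_018323, mmu_piR_000536, mmu_piR_000414, mmu_piR_002490, mmu_piR_039147 and mmu_piR_002643.

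The member with the smallest p among the 4 groups was one of them. mmu_piR_000958 stood at 3.89, 0.598 and 0.542 CPM in SS, 4.13, 1.72 and 30.2 in CS, 0.912, 0.499 and 0.962 in MS, and 37.1, 28.5 and 4.21 in MC. Its 3 high libraries were exactly those of set C, and 90.1% of its variance lay between the sets. mmu_piR_018323 stood at 6.93, 1.59 and 1.90 CPM in SS, 6.02, 5.05 and 8.19 in CS, 0.821, 2.00 and 1.44 in MS, and 13.9, 6.77 and 3.85 in MC. All 6 libraries of sets A and C were above all 6 of set B, and 82.3% of its variance lay between the sets. mmu_piR_000585 showed 75.3% between the sets, with 27.0, 7.27 and 4.97 CPM in SS, 29.5, 27.6 and 10.9 in CS, 4.38, 5.29 and 6.83 in MS, and 34.5, 10.4 and 11.7 in MC. Since set B holds every MS library and 2 of 3 SS libraries while CS and MC lie mostly in sets A and C, the set and the group cannot be fully told apart in these members.

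**Figure D4:**
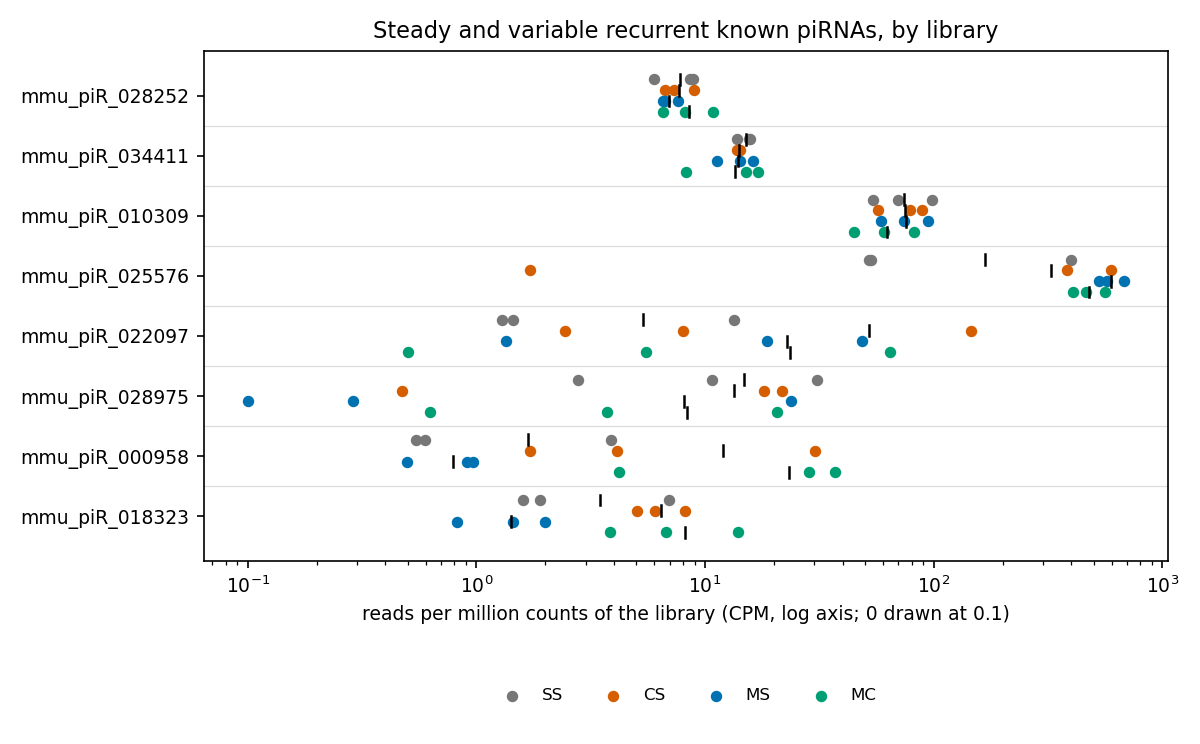
Level in each library (CPM, log axis, a level of 0 drawn at 0.1) of the 3 steadiest and 3 most variable members with a mean of at least 1 CPM, and of mmu_piR_000958 and mmu_piR_018323, with points coloured by group and a black bar at each group's mean (n = 3 libraries). mmu_piR_028252 stays between 5.95 and 10.8 CPM, whereas mmu_piR_000958 has 3 libraries at 28.5 CPM or more and 9 at 4.21 CPM or less.

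Group comparisons were tested with edgeR's quasi-likelihood test on the counts of all 281 piRNAs that passed the filter, with Benjamini-Hochberg adjustment over the 281 and a call at an adjusted p of at most 0.05. All 62 members passed, since the filter and the rule are the same. In the 5 tests (CS against SS, MS against SS, MC against CS, the interaction of cocaine and MET, and any difference among the 4 groups) 0 members were called, and 0 of 281 piRNAs in all (0.0% in each test). The members' SE had a median of 1.21 on the log2 scale in CS against SS, MS against SS and MC against CS. Without the filter on low counts, the fit took in all 693 piRNAs, 62 of them members. Members made up 4 of the 4 piRNAs that edgeR then called in CS against SS, 4 of 8 in MS against SS and 0 of 4 in MC against CS. They made up 2 of 3 in the interaction and 4 of 12 among the 4 groups. The members were chosen by having counts, so these parts of the calls are not a result about the members. DESeq2 called 4 piRNAs among the 4 groups, of which 1 was a member, mmu_piR_000958 (adjusted p = 0.0447). It also called 1 piRNA in MS against SS and 2 in MC against CS, with 0 members among them.

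The first comparison asks how cocaine alone related to these piRNAs. In CS against SS, 48 members had a log2 fold change above 0 and 14 below it, with a median of 0.64 against 0.22 over all tested piRNAs, which scaling over all small RNAs lowered by 0.09. These estimates share their libraries, so their count is not a test, and CS replicate 8 held the highest level of 13 members. In 3 members the unadjusted p was under 0.05, all with higher CS, and they were the only 3 of 281 piRNAs (1.07%). Every CS library was above every SS library in 5 of the 62 members, against 12 of 281 tested piRNAs (4.27%). Every CS library was below every SS library in 0 members, against 5 of 281 (1.78%). The 5 members above were mmu_piR_032974, mmu_piR_030130, mmu_piR_035888, mmu_piR_000414 and mmu_piR_004086.

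mmu_piR_032974 stood at 2.43, 0.498 and 0.903 CPM in SS against 54.6, 3.44 and 7.21 in CS, a log2 fold change of 4.10 ± 1.82 (SE, edgeR adjusted p = 0.894). Without CS replicate 8 the log2 fold change was 2.04. mmu_piR_000958 had a log2 fold change of 2.74 ± 1.08 (SE, edgeR adjusted p = 0.894), which was 0.88 without CS replicate 10 and 0.69 with library set as a covariate. Without SS replicate 12 it was 4.15. Within set A, CS replicate 8 (4.13 CPM) was above the 1 SS library (3.89 CPM) and CS replicate 9 (1.72 CPM) below it. mmu_piR_034793 had a log2 fold change of 2.52 ± 1.07 (SE, edgeR adjusted p = 0.894), with CS replicate 9 (7.0 CPM) below all SS libraries. mmu_piR_004086 had 73 counts in CS, 59 of them in CS replicate 8, against 3 in SS, a ratio of 28.2 with a counting interval of 9.26 to 140 (exact conditional binomial, 95%). That interval holds counting error only and not the spread between pools. The edgeR log2 fold change of mmu_piR_004086 was 4.57 ± 2.47 (SE, edgeR adjusted p = 0.894). Of the members with lower levels in CS, the smallest p belonged to mmu_piR_037320 (5.29 CPM in SS and 2.68 in CS), mmu_piR_019200 (6.97 and 3.29) and mmu_piR_033344 (21.5 and 11), each with overlapping libraries. Their log2 fold changes were -1.08 ± 0.59, -1.17 ± 0.69 and -1.12 ± 0.78 (SE). The first was -0.63 without CS replicate 8. The last was -0.33 without SS replicate 13 and -0.20 with library set as a covariate.

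Of the 3 most abundant members, mmu_piR_000273 had an estimate near 0 in CS against SS, and for the other two the standard error was larger than the estimate. The log2 fold change of mmu_piR_000273 was 0.00 ± 0.48 (SE, 95% interval -0.94 to 0.95 by a normal approximation, narrower than the F-test implies). Its sign differed between ways of scaling. The log2 fold change of mmu_piR_000935 was 0.91 ± 0.94 and turned to -0.77 without CS replicate 8. That of mmu_piR_025576 was 0.97 ± 1.23, and it was 0.19 without CS replicate 8 and 2.38 without SS replicate 12.

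The second comparison asks how MET alone related to these piRNAs, and it shares its SS libraries with the first. In MS against SS, 26 members had a log2 fold change above 0 and 36 below it, with a median of -0.13 against -0.14 over all tested piRNAs, which scaling over all small RNAs lowered by 0.15. The unadjusted p was under 0.05 in 1 member, against 10 of 281 (3.56%). Every MS library was above every SS library in 6 of the 62 members, against 14 of 281 tested piRNAs (4.98%). Every MS library was below every SS library in 1 member, against 13 of 281 (4.63%). The 6 were mmu_piR_025576, mmu_piR_034793, mmu_piR_033077, mmu_piR_032865, mmu_piR_030130 and mmu_piR_002142, and the other was mmu_piR_029675.

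mmu_piR_034793 had the smallest p, with 10.4 ± 5.34 CPM in SS and 64.9 ± 74.6 in MS (SD, n = 3). Its log2 fold change was 2.54 ± 1.07 (SE, edgeR adjusted p = 0.515), or 1.18 without MS replicate 4 and 2.39 within set B. Each log2 value within a set is a ratio of group means with 0.5 CPM added to both, which shrinks ratios of low levels. mmu_piR_025576 stood at 168 ± 200 CPM in SS and 595 ± 79.7 in MS (SD, n = 3), a log2 fold change of 1.90 ± 1.26 (SE, edgeR adjusted p = 0.540). The SS libraries of set B were the low ones, and within set B the log2 ratio of group means was 3.49, while the fit without SS replicate 12 gave 3.41. mmu_piR_030130 stood at 0.972, 0.199 and 0.993 CPM in SS against 2.28, 3.60 and 1.54 in MS (log2 fold change 1.72 ± 0.87, SE). mmu_piR_032865 stood at 2.19, 0.697 and 1.53 CPM in SS against 2.55, 3.70 and 3.56 in MS (1.11 ± 0.57). The lower members by p were mmu_piR_018323, mmu_piR_000585 and mmu_piR_026137, with log2 fold changes of -1.27 ± 0.60, -1.21 ± 0.62 and -1.19 ± 0.76 (SE, edgeR adjusted p from 0.515 to 0.524). Without SS replicate 12, the SS library of set A, the first was -0.42 and the second -0.24. Within set B they were -0.22 and -0.14, while mmu_piR_026137 was -1.08 there. The latter ran from -1.73 without MS replicate 23 to -0.77 without MS replicate 4. mmu_piR_000273 was at -0.16 ± 0.48 and mmu_piR_000935 at 0.54 ± 0.94 (SE), with signs that turned when SS replicate 14 or MS replicate 4, respectively, was left out.

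**Figure D5:**
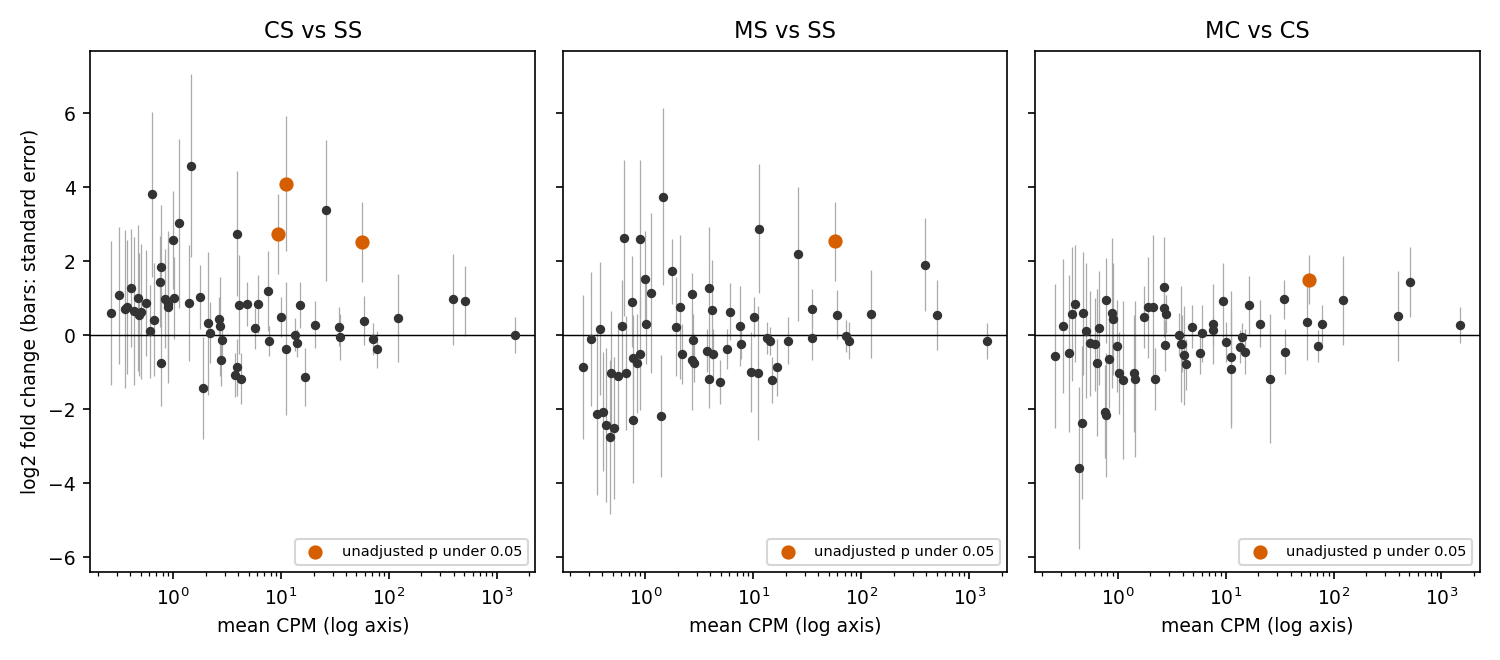
Log2 fold change with its standard error (edgeR, 12 libraries, 3 per group) against the mean level over all libraries (CPM, log axis) for the 62 recurrent known piRNAs in 3 comparisons, with members at an unadjusted p under 0.05 in orange. There are 3 such members in CS against SS, 1 in MS against SS and 1 in MC against CS, and 0 pass adjustment.

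The third comparison asks how MET in cocaine-treated animals related to these piRNAs. In MC against CS, 31 members had a log2 fold change above 0 and 31 below it, with a median of -0.03 for the members and for all tested piRNAs, which scaling over all small RNAs raised by 0.16. The unadjusted p was under 0.05 in 1 member, against 13 of 281 (4.63%). Every MC library was above every CS library in 0 of the 62 members, against 10 of 281 tested piRNAs (3.56%). Every MC library was below every CS library in 3 members, against 13 of 281 (4.63%). Those 3 members were mmu_piR_000414, mmu_piR_035888 and mmu_piR_039114.

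mmu_piR_000691 had the smallest p, with 39.3 ± 15.0 CPM in CS and 127 ± 148 in MC (SD, n = 3). Its log2 fold change of 1.49 ± 0.66 (SE, edgeR adjusted p = 0.505) was 0.16 without MC replicate 16. mmu_piR_033077 likewise went from 0.97 ± 0.53 (SE) to 0.033 without that library. mmu_piR_000935 stood at 376 ± 445 CPM in CS and 1172 ± 1035 in MC (SD, n = 3), a log2 fold change of 1.43 ± 0.95 (SE, edgeR adjusted p = 0.624), which was 0.70 without CS replicate 9, 0.74 without MC replicate 16 and 2.75 without CS replicate 8. MC replicate 16 was also the library with the lowest neural marker sum and the highest share of rRNA, tRNA, snRNA and snoRNA reads. It was lowest as well in the summed marker miRNAs of red blood cells (387 CPM, against 1496 CPM or more elsewhere) and of endothelium (2972 CPM, against 6579.7 or more), and the part of these in the 3 values was not tested. Among the lower members, mmu_piR_039114 stood at 1.18, 2.18 and 0.611 CPM in CS against 0.515, 0.125 and 0.366 in MC (log2 fold change -2.06 ± 1.26, SE). It was -0.93 with library set as a covariate. Within set C the log2 ratio of group means was -0.44 with 0.5 CPM added to each mean. The levels there were close to the added value, which shrinks this ratio. mmu_piR_023189 stood at 3.19, 3.44 and 2.20 CPM against 0.644, 0.502 and 2.66 (-1.19 ± 0.84), and its log2 fold change was -2.43 without MC replicate 20. mmu_piR_039147 rested on 24 counts in CS, 23 of them in the set A libraries, and 2 in MC. Its ratio was 0.0793 with a counting interval of 0.00908 to 0.319 (exact conditional binomial, 95%), which leaves out the spread between pools. Between the sets lay 96.0% of its variance. mmu_piR_000414 and mmu_piR_035888 were above SS in every CS library and below CS in every MC library. The share of all tested piRNAs with both patterns was not counted. mmu_piR_000414 stood at 1.46, 0.199 and 0 CPM in SS, 1.89, 1.84 and 2.20 in CS, and 0.901, 0.251 and 0.275 in MC. Its edgeR adjusted p was 1.00 for CS against SS and 0.736 for MC against CS. mmu_piR_035888 stood at 0.486, 0.896 and 0.812 CPM in SS, 1.53, 2.07 and 1.22 in CS, and 0.257, 0.878 and 1.19 in MC. Its log2 fold change in CS against SS was 0.99 ± 1.11 (SE). The comparisons share the CS libraries. Between the sets lay 78.2% of the variance of mmu_piR_000414 and 12.9% of that of mmu_piR_035888.

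The interaction asks whether the difference with cocaine was the same with and without MET. Here 35 members lay above 0 and 27 below it, with 0 members at an unadjusted p under 0.05, against 7 of 281 (2.49%). The smallest p belonged to mmu_piR_029675 (interaction 1.32 ± 0.72 on the log2 scale, SE), mmu_piR_018323 (1.5 ± 0.83) and mmu_piR_039114 (-2.97 ± 1.75), all at an edgeR adjusted p of 1.00. The second was 0.34 without SS replicate 12 and the first 0.75 without CS replicate 8. mmu_piR_029675 had means of 2.68 ± 0.543 CPM for SS, 2.69 ± 0.650 for CS, 1.62 ± 0.191 for MS and 4.28 ± 2.20 for MC (SD, n = 3), with 6.69 CPM in MC replicate 16.

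Among the 4 groups, the unadjusted p was under 0.05 in 3 members, against 14 of 281 (4.98%). In order of p they were mmu_piR_000958, mmu_piR_018323 and mmu_piR_000691, each at an edgeR adjusted p of 0.606. With library set as a covariate, the edgeR adjusted p of the first and second was 1.00. Those 2 followed the library sets as described, and the level of the third rested on MC replicate 16.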

How the data were processed

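Small RNA of 18 to 30 nt from 12 libraries (3 per group) was read at 50 nt on the BGISEQ-500. Per the study's methods, the authors dropped low-quality reads and reads under 16 nt and mapped the clean reads with AASRA. After reads of miRNA, tRNA and rRNA had been taken out, the others were compared by them with piRBase (Bowtie, up to 1 mismatch). Versions were not given in the sources used here, and the submitters' processing notes name mm10. The deposited counts are raw reads per small RNA. The TPM values deposited beside them by the authors equal the count over the library total times 1000000 (largest gap 0.005), and were not otherwise used. Repeat, exon, intron and intergenic rows, which are no single RNA, held 18.7% to 31.4% of each total and were kept in the library size but not tested.

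Counts were tested with the quasi-likelihood F-test of edgeR 4.0.16 (R 4.3.3), two-sided, with library size set to the library total and a coefficient for each group, which left 8 residual degrees of freedom. TMM factors and dispersions came from the piRNAs that had 5 or more counts in 3 or more libraries, and SE from the log2 fold change and F. The authors' own test (DEGseq) was not rerun. Settings were tested on simulated data for CS against SS. Of the tested piRNAs given a log2 difference of 2 there, 5 of 77 (6.49%) were called, so most were missed. With a log2 difference of 4, 44 of 93 (47.3%) were called. Of the piRNAs given no difference, 0 were called in the data with a log2 difference of 2 and 1 in those with 4. Levels, spread and ranks were computed with Python 3.11.15 (scipy 1.17.1, numpy 2.4.6, pandas 2.3.3, figures with matplotlib 3.10.9), with a pseudocount of 0.5 CPM on the log2 scale. The members, lists and tests were chosen with earlier results of these data known. Named members are the 12 most abundant, the 3 with the smallest p per direction and test, the 3 steadiest and 3 most variable with a mean of at least 1 CPM, those at the edge of the rule, and some named after their values were seen where a small count or a shared pattern is spelled out. Summed marker miRNAs of other cells ran from 387 to 3973 CPM (red blood cell), 390 to 2306 (leukocyte and microglia), 2972 to 9877 (endothelium), 9.04 to 2494 (liver, highest in MS replicate 3), 27.0 to 87.4 (muscle) and 18.7 to 48.0 (choroid plexus). Alternatives were DESeq2 1.42.0, other scaling and filters, a covariate for library set, a fit over the known piRNAs, the 6 libraries of a comparison, and each library left out. P-values measure the spread between these pools only.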

Additional observations from a re-analysis of the deposited data

How the results depend on the processing

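Of 694 values of 32 results for named members under all alternatives, 669 kept their side of the threshold, 18 changed sign and 7 passed the threshold. The 669 also kept their direction, except that results among the 4 groups have none. No main result passed the threshold, so most values could hardly change side. A change in the size of an estimate was not judged. Leaving out each library in turn gave 0 called piRNAs in each of the 5 tests (0 to 0). Without the filter on low counts, edgeR called 4 piRNAs in CS against SS, 8 in MS against SS, 4 in MC against CS, 3 in the interaction and 12 among the 4 groups. The members among these were mmu_piR_000958, mmu_piR_022097, mmu_piR_032974 and mmu_piR_034793 in CS against SS and again among the 4 groups, and mmu_piR_022097, mmu_piR_025576, mmu_piR_032974 and mmu_piR_034793 in MS against SS. In the interaction they were mmu_piR_022097 and mmu_piR_032974. DESeq2 called 1 piRNA in MS against SS, 2 in MC against CS and 4 among the 4 groups. The cause was not tested.

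For mmu_piR_000273 in CS against SS the log2 fold change was -0.091 with DESeq2, -0.16 with TMM factors from all small RNAs, -0.16 in a fit over all small RNAs, -0.11 with at least 10 counts in 3 libraries, -0.10 without a filter and -0.39 over known piRNAs alone (chosen after seeing the data). With libraries left out it ran from -0.41 to 0.21, in MS against SS from -0.18 to 0.059 and in MC against CS from -0.15 to 0.46. For mmu_piR_000935 the range was -0.77 to 1.30 in CS against SS and -0.033 to 0.89 in MS against SS, and for mmu_piR_025576 in MC against CS it was -0.21 to 1.11. Library size without repeat, exon, intron and intergenic reads, also added after seeing the data, turned none of these signs.

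Over mature miRNA counts as the denominator the members' mean level was 4986 counts per 1000000 in place of 3059.5. The difference in median rank correlation was 0.082 between same-set and different-set pairs, and -0.014 between same-group and different-group pairs. With stricter rules 49 to 51 piRNAs were recurrent, and 57 to 62 with a library left out. No paired analysis was possible because the groups share no replicate number. Depth limits members with a mean under 1 CPM, which had few counts per library.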
